A study of Mus musculus with 4 samples.

Results

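Cish and Socs1 to Socs7 are the 8 genes of the suppressor of cytokine signalling family, and they were described here in Achilles and plantaris tendons of male and female mice. The 8 genes were chosen by symbol, with earlier results of these data known, in which Cish and Socs3 stood among the genes with the widest sex differences. They had 11 probe sets that carry exactly 1 gene symbol, of 23521 such probe sets for 22180 genes on the array. Cish, Socs2 and Socs3 had 2 probe sets each and the other 5 genes had 1. For each gene the probe set with the highest mean over the 4 arrays was selected as the main one, and all are shown.

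The series compared normal gene expression between the sexes. All mice were untreated wild-type C57Bl/6 animals aged 4 months, and 2 arrays came from males and 2 from females. Values are log2 RMA values, a normalized array signal on which a difference of 1 is a doubling, and differences are female minus male. The SE, interval and p-value of a difference are from limma, which pulls each probe set's variance toward a value shared by all probe sets. They are therefore not those that the SDs of the 2 arrays of each sex would give, and can be narrower or wider. RNA came from whole tendon, although the labels name the cells as tenocytes, so fewer cells of a type and less RNA per cell cannot be told apart. The labels give 3 RNA wells per sample and do not say that the 2 samples of a sex came from separate animals. The p-values therefore reflect the spread among these 4 samples alone, part of which may be technical.

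Several proteins of this family are induced by cytokines and growth hormone and then switch the same signals off. A cytokine bound to its receptor activates Janus kinases (JAKs), which phosphorylate STAT transcription factors, and STATs in turn activate Cish and several Socs genes. Each protein of the family holds an SH2 domain, which binds phosphorylated tyrosines of receptors or kinases. Each also holds a SOCS box, which recruits a ubiquitin ligase built on elongins and a cullin. Cish and Socs2 are known as STAT5 targets and act on growth hormone and related receptors, Socs3 restrains signalling through the shared IL-6 receptor chain gp130, and Socs1 restrains interferon signalling.

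The promoters of Cish and Socs3 are shown because these members had the widest differences between the sexes. Sequences are from RefSeq, build GRCm38.p6, where 4 of the 8 genes had a promoter window: Cish, Socs1, Socs3 and Socs4. The motif searched was the palindromic STAT binding motif TTCNNNGAA, which reads the same on both strands, and capitals mark its matches. The first line is the 250 bases before the Cish start (chr9:107296409-107296658, plus strand), the second is the first 20 bases from that start (chr9:107296659-107296678), and the third is the 250 bases before the Socs3 start (chr11:117969367-117969616, minus strand).
Cish before the start: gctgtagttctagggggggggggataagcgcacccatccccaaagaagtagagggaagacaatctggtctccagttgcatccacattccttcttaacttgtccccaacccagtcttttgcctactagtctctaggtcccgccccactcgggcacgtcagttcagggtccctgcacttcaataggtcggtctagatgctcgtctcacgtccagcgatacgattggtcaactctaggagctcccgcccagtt
Cish from the start: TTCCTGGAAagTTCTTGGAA
Socs3 before the start: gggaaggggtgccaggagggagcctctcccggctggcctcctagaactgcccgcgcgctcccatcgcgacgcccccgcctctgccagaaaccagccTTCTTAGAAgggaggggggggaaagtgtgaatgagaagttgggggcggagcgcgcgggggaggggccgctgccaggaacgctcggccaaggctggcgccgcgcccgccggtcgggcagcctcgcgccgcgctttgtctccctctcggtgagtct

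Counting from 1 at the annotated start, the Cish window held 2 matches, TTCCTGGAA at positions 1 to 9 and TTCTTGGAA at 12 to 20. The Socs3 window held 1, TTCTTAGAA at positions -154 to -146. The windows of Socs1 and Socs4 held no match. Over all 32851 windows of the same 300 bases (250 before the start and 50 after), 8.30% held at least 1 match and 0.457% held at least 2. The bases before the start were 55.2% G or C for Cish and 71.6% for Socs3, beside a median of 52.4% over all windows. A match describes these letters and does not show that a factor binds there.

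Cish, which encodes the founding member of the family, had the widest sex difference of the 8 genes. Its main probe set (17530881) was at 5.13 in male 1, 5.90 in male 2, 3.53 in female 1 and 3.09 in female 2. Both males lay above both females, and the gap between the groups was wider than that within either. The male mean was 5.52 ± 0.55 (SD, n = 2) and the female mean 3.31 ± 0.31 (SD, n = 2). They differed by -2.21 (SE 0.33, 95% interval -3.09 to -1.32) or a 4.62-fold higher signal in males. This was the 10th most negative difference of the 23521 probe sets. It ran from -2.59 without male 1 to -1.82 without male 2. Since Cish was proposed with this difference known, the value is a description.

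The second Cish probe set did not follow the main one. Probe set 17521300 was at 2.03 in male 1, 1.80 in male 2, 2.01 in female 1 and 1.85 in female 2, a difference of 0.02 (SE 0.17). All 4 values lay below the array medians, which ran from 2.27 to 2.30 over all rows and where signal was not told from background. Averaged over both probe sets, the Cish difference was -1.09.

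Socs3, the inhibitor of gp130 signalling, was next. Its main probe set (17547600) was at 5.12 in male 1, 4.56 in male 2, 2.91 in female 1 and 3.57 in female 2. Again both males lay above both females. The male mean was 4.84 ± 0.39 (SD, n = 2) and the female mean 3.24 ± 0.47 (SD, n = 2). They differed by -1.60 (SE 0.32, 95% interval -2.47 to -0.74) or a 3.04-fold higher signal in males. It was the 38th most negative difference of all probe sets, and it too is a description. Without female 1, the lower female array, the difference was -1.27, and it was -1.93 without female 2.

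The other Socs3 probe set (17272619) gave signal above the array medians on all 4 arrays, at 3.23 in male 1, 3.07 in male 2, 3.06 in female 1 and 2.54 in female 2. Its difference had the same sign but was smaller, -0.35 (SE 0.23, 95% interval -0.97 to 0.27). The males lay above the females here too, male 2 and female 1 by a narrow margin. The mean over both probe sets differed by -0.98. Female 1 was the lower female array on the main probe set and the higher one on this probe set.

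Socs2, which limits growth hormone signalling, had probe sets with little difference between the sexes. The main one (17244486) was at 2.78 in male 1, 2.30 in male 2, 2.37 in female 1 and 2.57 in female 2, a difference of -0.07 (SE 0.22). The other (17274184) was at 2.55, 2.04, 1.77 and 2.68 in the same order, also a difference of -0.07 (SE 0.38). On both probe sets the sexes overlapped and values lay close to the array medians, so a difference in Socs2 could have been hidden by background. The 95% interval of the main probe set ran from -0.67 to 0.53.

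**Figure D1:**
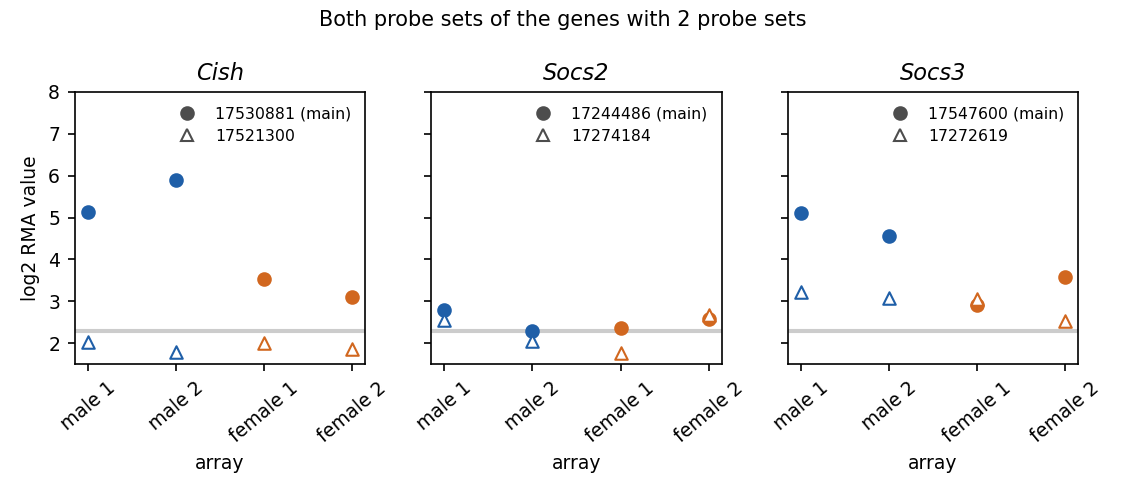
Log2 RMA values (vertical axis) of both probe sets of Cish, Socs2 and Socs3 on each array (horizontal axis), males in blue and females in orange; filled circles are main probe sets, open triangles the others, and the grey band spans the 4 array medians. Males lie above females on the main probe sets of Cish and Socs3, while the second Cish probe set lies between 1.80 and 2.03 in both sexes; heights of different probe sets are not comparable.

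Such disagreement was common among genes whose main probe set differed widely, a choice that favours a smaller difference in the other probe set. Of 968 genes with exactly 2 probe sets, 55.5% had differences of the same sign in both, and the median gap between them was 0.24. The differences of Cish (-2.21 and 0.02) and of Socs3 (-1.60 and -0.35) lay further apart than that. In 37 of these genes, Cish and Socs3 included, the main probe set differed by more than 1 in either direction. The other probe set differed by more than 1 the same way in 3 of the 37, had the same sign in 29 and lay within 0.5 of 0 in 30. Both Cish and Socs3 are among the 30.

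Socs1, the inhibitor of interferon signalling, was at 2.15 in male 1, 2.41 in male 2, 2.60 in female 1 and 2.98 in female 2. Both females lay above both males, but male 1 was below the median of its array and the other male was close to it. The difference was 0.51 (SE 0.21, 95% interval -0.05 to 1.07), and it was 0.32 without female 2. Socs5, known for limiting IL-4 and EGF receptor signalling, was the other gene that was higher in females, at 2.99 and 2.88 in males 1 and 2 and 3.43 and 3.06 in females 1 and 2. Its groups did not overlap, but male 1 and female 2 were close. The difference was 0.31 (SE 0.19), and it was 0.13 without female 1 and 0.50 without female 2.

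Socs4, a relative of Socs5, was at 4.97 in male 1, 4.45 in male 2, 4.18 in female 1 and 4.02 in female 2. Both males lay above both females, with a difference of -0.61 (SE 0.23, 95% interval -1.23 to 0.01). The size rested partly on male 1, without which it was -0.34. Socs4 had 1 probe set, so no second one could be set beside it.

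Socs6, which has been tied to insulin receptor signalling, was at 2.86 in male 1, 2.53 in male 2, 2.73 in female 1 and 2.58 in female 2. The sexes overlapped, with a difference of -0.04 (SE 0.19). Socs7, known for binding insulin receptor substrate proteins and adaptor proteins, was at 4.61 in male 1, 5.44 in male 2, 5.25 in female 1 and 4.11 in female 2. Each sex held a high and a low array, so the spread within the sexes exceeded the difference of -0.34 (SE 0.49). Its sign turned without male 2 (0.07) and without female 2 (0.22).

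**Figure D2:**
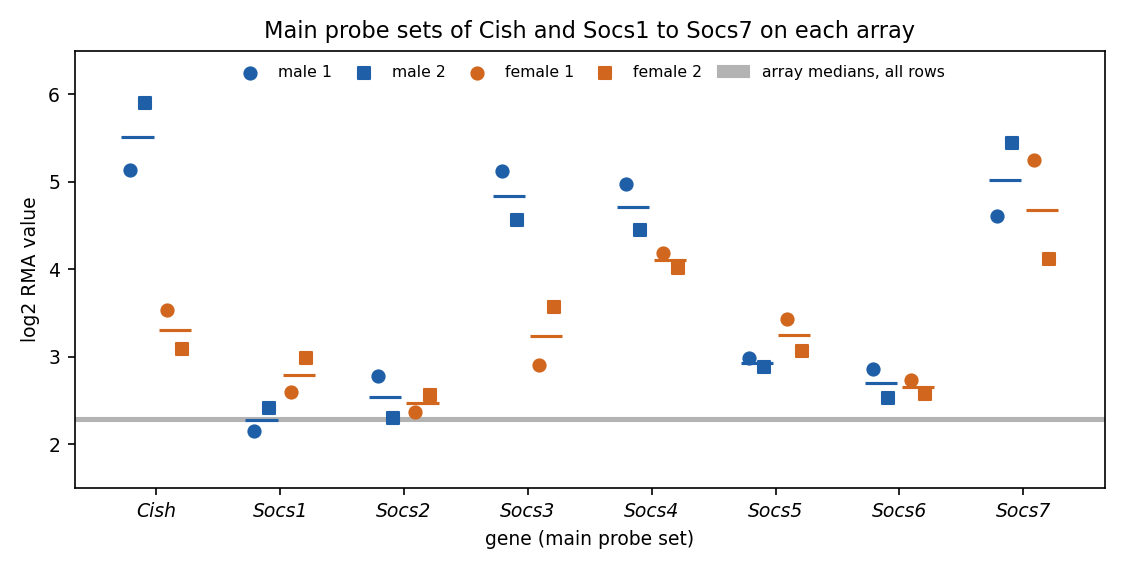
Log2 RMA value (vertical axis) of the main probe set of each gene (horizontal axis) on the 4 arrays, with the mean of each sex as a short line and the array medians as a grey band. The sexes are apart for Cish (5.13 and 5.90 in males, 3.53 and 3.09 in females) and Socs3, and overlap for Socs2, Socs6 and Socs7; heights of different genes are not comparable, since probes differ in their response.

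No member passed the test. Limma, fitted to all 23521 probe sets with Benjamini-Hochberg adjustment, called 0 of the 8 genes and 0 of the 11 probe sets at an adjusted p under 0.05, and 0 probe sets in the whole table (0%). The adjusted p was 0.969 for Cish, Socs1, Socs3, Socs4 and Socs5 alike, and the lowest in the table was 0.772. The sex-linked genes Xist (difference 5.47, SE 0.32) and Eif2s3y (-2.45, adjusted p 0.969) were not called either. A lack of calls therefore does not show that the sexes were alike. Without adjustment 1056 of the 23521 probe sets had a p under 0.05 by limma, among them the main probe sets of Cish and Socs3. That count is no larger than such a threshold passes where no probe set differs.

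By direction, 6 of the 8 main probe sets were lower in females and 2 were higher, with a median difference of -0.21, while 51.2% of all probe sets were lower in females and their median was -0.01. The median absolute difference was 0.43 for the members and 0.15 for all probe sets. The groups did not overlap for 5 of the 8 genes, with males higher in 3 (Cish, Socs3 and Socs4) and females higher in 2 (Socs1 and Socs5). Over all probe sets 33.3% did not overlap, 17.5% with males higher and 15.8% with females higher. The members were proposed with this contrast known, so nothing is read from these counts. A difference below -1 was seen in 143 probe sets (0.608%), and the main probe sets of Cish and Socs3 are 2 of them.

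**Figure D3:**
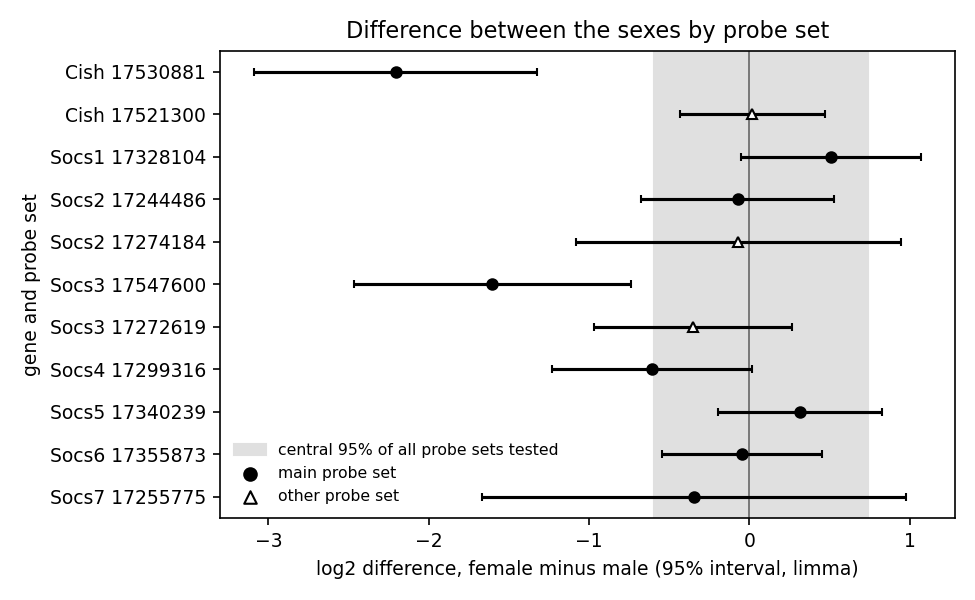
Log2 difference, female minus male (horizontal axis), of all 11 probe sets (vertical axis) with 95% intervals from limma; filled circles are main probe sets, open triangles the others, and the grey band holds the central 95% of all probe sets tested (-0.59 to 0.74). The main probe sets of Cish and Socs3 lie far to the left of the band, Socs4 (-0.61) lies just outside it, and the remaining 8 lie inside it.

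Over the 4 arrays, the members did not share 1 pattern. After centring each main probe set on its own mean, the smallest Euclidean distance between members was 0.27, between Socs2 and Socs6, which both varied little. Cish and Socs3 were 1.36 apart: Cish was highest in male 2 and lowest in female 2, whereas Socs3 was highest in male 1 and lowest in female 1. The largest distance, 2.80, was between Cish and Socs1, whose differences had opposite signs.

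Among 10146 other genes above the median level, the 5 nearest to Cish over the 4 arrays were Eif2s3y, a gene of the Y chromosome, at a distance of 0.63, C7 (0.86), Slc38a4 (0.90), Cacng7 (0.92) and Maf (0.98). The 5 nearest to Socs3 were Sdc1 (0.14), Egr1 (0.25), Eola1 (0.34), Trappc3 (0.38) and Ighm (0.44). All 10 were higher in both males than in either female, as the choice by likeness fixes. Egr1, an immediate early gene, was at 5.90 in male 1, 5.06 in male 2, 3.47 in female 1 and 4.34 in female 2. With 4 arrays, likeness of this kind describes the ordering of a few values.

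The genes that act upstream of the family were compared next, in lists assembled from general knowledge of the pathway. Limma called 0 genes in each list in either direction. Of the cytokine and hormone ligands, 7 of 17 measured were higher in females and 10 lower, with a median difference of -0.03. Il6, Il11, Osm, Ifng, Il4, Il7, Il10, Csf2 and Csf3 lay below the array medians on all 4 arrays. Ctf1, which encodes the gp130 cytokine cardiotrophin 1, had the widest difference, 0.49 (SE 0.25), at 3.52 and 3.48 in the males and 4.30 and 3.68 in the females. Tslp, an epithelial cytokine gene, differed by 0.41 (SE 0.52), with overlapping sexes.

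Of the receptors, 15 of 22 measured were higher in females, with a median of 0.11, which was 0.06 without male 1, 0.23 without male 2 and 0.21 without female 1. Ghr, the growth hormone receptor gene, was at 5.67 and 5.63 in males and 5.78 and 5.55 in females, a difference of 0.02 (SE 0.16). Il6st, which encodes gp130, was at 7.76 and 8.41 in males and 7.53 and 8.45 in females, a difference of -0.10 (SE 0.41). Its spread within each sex was wider than the difference. Il6ra, the IL-6 receptor gene, had the widest difference, 0.93 (SE 0.50), and rested on female 2, at 4.87 against 2.99 to 3.63 elsewhere. Ifngr1, an interferon gamma receptor gene, differed by 0.74 (SE 0.33), and Lepr, the leptin receptor gene, by 0.37 (SE 0.43). Prlr, Il2rg and Il11ra1 had no probe set with exactly 1 symbol and have no value here.

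Of the Janus kinases and STATs, 7 of 9 measured were higher in females, with a median of 0.23. The median was 0.01 without male 1, 0.05 without female 1 and 0.43 without female 2. Stat5a and Stat5b, which relay growth hormone signals, differed by 0.30 (SE 0.36) and 0.07 (SE 0.38), and Jak2, the kinase of the growth hormone receptor, by 0.02 (SE 0.43). Stat3, which relays gp130 signals, was at 5.26 and 5.45 in males and 5.58 and 5.57 in females, a difference of 0.23 (SE 0.15). Stat6, the factor of IL-4 signalling, differed by 0.83 (SE 0.44) and Tyk2 by 0.33 (SE 0.17).

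Among other inhibitors of the pathway 6 of 11 were higher in females, and the median was 0.04. The phosphatase genes Ptpn2 and Ptpn6 had the widest differences, -0.31 (SE 0.68) and 0.30 (SE 0.23). Ptpn2 was at 4.18 in male 2 and between 2.20 and 2.98 on the other arrays, so the sexes overlapped. Partners of the SOCS box had the highest median of the pathway lists, 0.49, with 6 of 7 measured higher in females. The median was 0.27 without male 1 and 0.77 without male 2. Cul5, the cullin 5 gene, was the 1 that was lower, at -0.10 (SE 0.28) with overlapping sexes, and its other probe set differed by 0.31 (SE 0.42). Rbx1 was listed but not measured. Arih2, a ubiquitin ligase gene that works with cullin 5, was at 4.53 and 4.87 in males and 5.65 and 5.24 in females, a difference of 0.74 (SE 0.23). Elob, the elongin B gene, differed by 0.71 (SE 0.33), and its other probe set by 0.28 (SE 0.18). The groups did not overlap for 4 of these 7 genes, all with females higher, where 15.8% of all probe sets did not overlap in that direction.

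Genes listed as targets of STATs were compared last. The lists do not separate targets that a STAT raises from those it lowers. Of the STAT5 targets, 3 of 7 were higher in females, with a median of -0.03 that ran from -0.19 without male 2 to 0.16 without female 1. Igf1, the growth hormone responsive growth factor gene, was at 5.87 and 5.57 in males and 5.28 and 5.88 in females, a difference of -0.14 (SE 0.26). Bcl6, a transcriptional repressor gene, differed by 0.61 (SE 0.57) and Bcl2l1, a survival gene, by 0.41 (SE 0.35), both with a low value in male 2. The sexes overlapped for all 3 of these genes.

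Of the STAT3 targets, 9 of 14 were higher in females, with a median of 0.10 (0.21 without male 1) and a wide range from -1.36 to 1.40. Fos, an immediate early gene, was at 4.58 in both males and at 3.27 and 3.16 in females 1 and 2, a difference of -1.36 (SE 0.14). Junb, of the same AP-1 family, was at 4.46 and 4.38 in males and 3.25 and 4.07 in females, a difference of -0.75 (SE 0.31). Junb, like Socs3, was lowest in female 1. Saa3, an acute phase gene, had the opposite sign at 1.40 (SE 0.48), with both male values below the array medians.

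**Figure D4:**
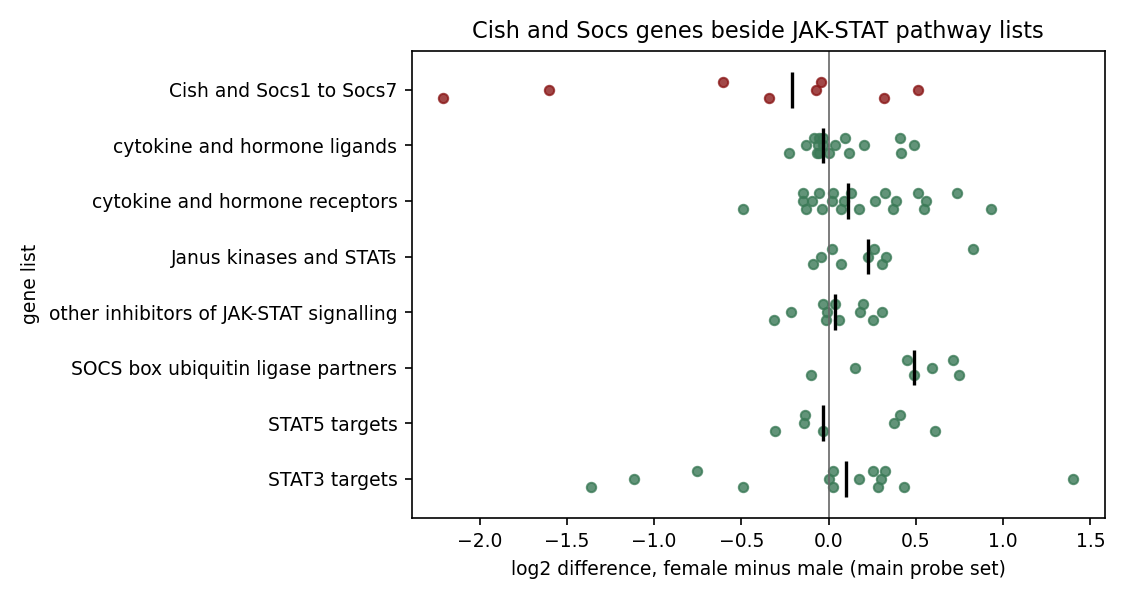
Log2 difference, female minus male (horizontal axis), of the main probe set of each measured gene, by list (vertical axis), with the median of each list as a black line. Cish (-2.21) and Socs3 (-1.60) are the 2 leftmost points of the plot, and the list medians lie between -0.21 and 0.49.

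Markers of other cell types differed between the arrays. For adipocytes, 8 of 9 measured markers had a higher mean in females, with mean log2 levels of 4.49 and 5.15 in males and 5.47 and 5.78 in females. For macrophages this held for 10 of 12 markers, with mean levels of 3.87 and 3.95 in males, 3.91 in female 1 and 4.87 in female 2. Skeletal muscle markers were lower in 8 of 12, at 9.67 and 9.72 in males, 9.82 in female 1 and 8.96 in female 2. Without female 2, which stood apart in the last 2 lists but not the first, the difference was -1.99 for Cish and -1.93 for Socs3. Of lymphocyte markers, 6 of 9 measured (Cd3d, Cd3e, Cd3g, Cd4, Cd8a and Ms4a1) lay below the array medians on all 4 arrays, as did 8 of 11 neutrophil and mast cell markers. Of the tendon markers, 9 of 12, Col1a1, Tnmd and Scx among them, lay above the array medians on all 4 arrays. Mkx, Tnc and Chodl did so on 3 arrays, with Mkx below the median in female 1, Tnc in male 2 and Chodl in male 1. Xist (2.47 and 1.98 in males, 7.34 and 8.04 in females) matched the labelled sex. Eif2s3y was at 4.46 and 4.96 in males and lower in both females, at 2.86 and 1.65. In female 1 it still lay above the array median of 2.27. The part of these cell types in the Cish and Socs3 differences was not tested.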

How the data were processed

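Tendon RNA was measured on Mouse Gene ST 2.1 arrays, 2 per sex. The authors deposited log2 values, 1 per probe set and array; oligo and RMA appear in the submitters' processing notes. Their versions and the genome build are not given in the sources used here. Values between 0.517 and 11.9 fit a log2 scale. No further normalization was applied. GEO's platform annotation gave exactly 1 symbol to 23521 of 41345 rows, several to 1814 and none to 16010. All 8 members matched RefSeq by Entrez ID.

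A model with sex alone was fitted to the 23521 probe sets with limma 3.58.1 in R 4.3.3 and adjusted by Benjamini-Hochberg. The procedure was tested on simulated data. Precision is limited by the number of arrays, with a median SE of 0.187 for a difference. Members, lists and tests were chosen with earlier results of these data known. The rule for named genes took the 8 members, the 2 genes of widest difference above the median level from each list, 11 genes fixed by name (Jak2, Stat3, Stat5a, Stat5b, Il6st, Ghr, Prlr, Lepr, Igf1, Fos and Junb), and the 5 genes nearest to Cish and to Socs3. Erythrocyte markers had 1 measured gene, Slc4a1 (-0.09), endothelial markers a median of 0.17 and tendon markers 0.00. A further pathway list and a further gene are not reported here. Alternatives changed the rows, filter, prior, normalization, weights, pairing, probe set rule and arrays. Figures were drawn with matplotlib 3.10.9.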

Additional observations from a re-analysis of the deposited data

How the results depend on the processing

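Limma called 0 probe sets, 0 members and 0 pathway genes under every alternative run, including an adjusted p under 0.1 and leaving out each array in turn. At an unadjusted limma p under 0.05 there were between 472 of 11760 probe sets (those above the median level) and 1870 of 41345 (all rows of the table). These counts differ in how many rows were tested. The differences of Cish, Socs1, Socs3, Socs4 and Socs5 kept their sign under all alternatives. Their groups did not overlap, so leaving out an array could not turn the sign. The settings that changed the rows, filter, prior, weights or pairing left the differences as they were. When each array was left out in turn, Socs2 ranged from -0.31 to 0.17, Socs6 from -0.21 to 0.12 and Socs7 from -0.91 to 0.22, and all 3 turned sign. The widest move outside those settings was the mean over the probe sets of a gene, at -1.09 for Cish and -0.98 for Socs3, by construction through the weaker second probe set. The ligand median was 0.26 among probe sets above the median level, where fewer genes were left, and -0.024 to 0.067 without single arrays. The median of the other inhibitors was 0.064 to 0.256 without single arrays and -0.02 after quantile normalization once more, and that of STAT5 targets was 0.37 among probe sets above the median level. With the replicate block, differences are the same by construction and the adjusted calls stayed at 0; the deviations of same-numbered arrays correlated at -0.06, so the numbers were not taken as pairs. Signals near the array medians (Socs1, Socs2, Socs6, the second Cish probe set) limit what a difference there can show.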
